A study of Mus musculus with 12 samples.

Results

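Keratins are the intermediate filament proteins of epithelial cells, and 9 keratin genes that mark the layers of the mammary epithelium were followed here in mammary tumors of MMTV-neu mice. They were chosen by symbol, as 9 of the 54532 genes in the deposited tables, and not by a threshold on measured values, with earlier results of these data known. Krt8, Krt18, Krt7 and Krt19 represent the luminal layer, Krt5, Krt14, Krt15 and Krt17 the basal layer, and Krt10 the upper layers of the epidermis.

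Total RNA from frozen sections of 12 tumors was enriched for poly(A) RNA and sequenced, with 4 tumors in each of 3 groups. All mice carried the MMTV-Neu transgene, in which the mouse mammary tumor virus promoter drives wild-type Neu in mammary tissue, and were fed powdered chow with or without an agonist of the retinoid X receptor (RXR) for 10 days once a tumor was established. The control group received the diet with no agonist, the second group MSU-42011 at 100 mg/kg diet, and the third group bexarotene at 100 mg/kg diet. Each column of the tables is 1 tumor. The study names 4 mice per group, but the labels do not tie tumors to mice, so the p-values measure the spread between these tumors.

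A keratin filament is built from equal numbers of type I and type II chains, and a chain without a partner is degraded. Luminal cells of the mammary gland use Krt8 (type II) with Krt18 (type I), with Krt7 and Krt19 as further luminal chains, while basal and myoepithelial cells use Krt5 (type II) with Krt14 (type I). Tumors of the MMTV-neu model are known for a luminal character.

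Krt8 and Krt18 are neighbours on mouse chromosome 15, on opposite strands, with listed starts 23698 bases apart. Krt8 lies at chr15:101996698-102004482 on the minus strand and Krt18 at chr15:102028180-102032027 on the plus strand, in the coordinates of the tables, which match GRCm38. Their promoters are shown because these 2 genes carried nearly all of the keratin signal and varied together from tumor to tumor. Each run is taken from RefSeq (GRCm38.p6) and holds 250 bases before the RefSeq start and 20 bases from it on, 5′ to 3′ on the strand of the gene, with matches to TATAA, on either strand, in capitals.
Krt8: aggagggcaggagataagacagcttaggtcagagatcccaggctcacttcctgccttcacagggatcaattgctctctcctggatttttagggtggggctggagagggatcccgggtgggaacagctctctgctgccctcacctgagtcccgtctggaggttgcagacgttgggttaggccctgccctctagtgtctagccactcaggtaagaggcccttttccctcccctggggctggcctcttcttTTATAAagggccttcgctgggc
Krt18: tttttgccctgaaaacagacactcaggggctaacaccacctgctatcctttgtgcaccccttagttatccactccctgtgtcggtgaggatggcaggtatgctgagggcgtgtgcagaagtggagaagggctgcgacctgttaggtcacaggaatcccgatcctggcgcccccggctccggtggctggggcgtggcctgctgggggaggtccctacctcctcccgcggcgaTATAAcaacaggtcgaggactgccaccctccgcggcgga
The Krt8 run is chr15:102004323-102004592 (minus strand, 58.1% G or C), and the Krt18 run is chr15:102027966-102028235 (plus strand, 61.9% G or C). In the Krt18 promoter TATAA began 19 bases before the start. In the Krt8 promoter 2 overlapping matches, 1 on each strand, lay across the RefSeq start itself. Among 32851 promoter windows of this length, 23.7% held TATAA. The other motifs searched, again on both strands, were CCAAT (in 35.39% of the windows), GGGCGG (34.15%) and TGANTCA (7.23%), and neither gene's window held any of them. RefSeq windows were also found for Krt7, Krt5, Krt14 and Krt10, and none was used for Krt15, Krt17 and Krt19. The Krt7 window held 4 matches to GGGCGG, the Krt10 window held TATAA and CCAAT, and the Krt5 and Krt14 windows held none of the 4 motifs. The RefSeq starts used for Krt8 and Krt18 lie 140 and 36 bases inside the genes as listed, so their windows take in the first bases of the listed genes. Those used for Krt7 and Krt14 lie 1360 and 1518 bases inside. The windows of Krt7 and Krt14 therefore fall within the listed genes and leave out the sequence before the listed starts. These matches describe the letters only.

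Total counts ran from 16583413 to 25925027 reads in a tumor, so that 3 counts, the floor taken here, correspond to between 0.111 and 0.184 normalized CPM, a count scaled to a common library size. The floor covers counting error only. One tumor, bexarotene replicate 1, stood apart. It lay at 115 on the first principal component (33.6% of the variance) while the other 11 lay between -34.24 and 16.18, and its median correlation with the other tumors was 0.9148, where no other tumor had less than 0.9611. In this tumor the summed FPKM of 10 fibroblast markers was 6128, against 40.9 to 467.2 in the other 11, and the lists of endothelial, leukocyte and adipocyte markers were also above all 11. Results that rest on this tumor are given with and without it. FPKM is the read count scaled by gene length and library size, as the authors deposited it. It is used to compare genes, to list single tumors and to sum marker lists. Normalized CPM is used for group means, permutation tests and correlations.

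The luminal pair Krt8 and Krt18 was by far the most abundant of the 9 keratins in every tumor. The FPKM of Krt18 ranked between 106 and 234 among the 54532 genes and that of Krt8 between 171 and 350. Together the 2 genes took between 0.154% and 0.2413% of all counts in 11 tumors and 0.1056% in bexarotene replicate 1. Of the FPKM summed over the 9 keratins they made up between 96.86% and 98.55% in those 11 tumors and 90.97% in bexarotene replicate 1.

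In the order of mean FPKM, Krt18 was above Krt8, Krt8 above Krt7, and Krt7 above Krt10 in 12 of 12 tumors each. Krt10 was above Krt19 in 11 of 12 tumors and Krt19 above Krt14 in 10. Krt14 was above Krt5 in only 7 of 12 tumors and Krt5 above Krt17 in 3, so the order of these 3 basal keratins did not hold from tumor to tumor. Krt15 was at the bottom, with 6 reads in all 12 tumors together.

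**Figure D1:**
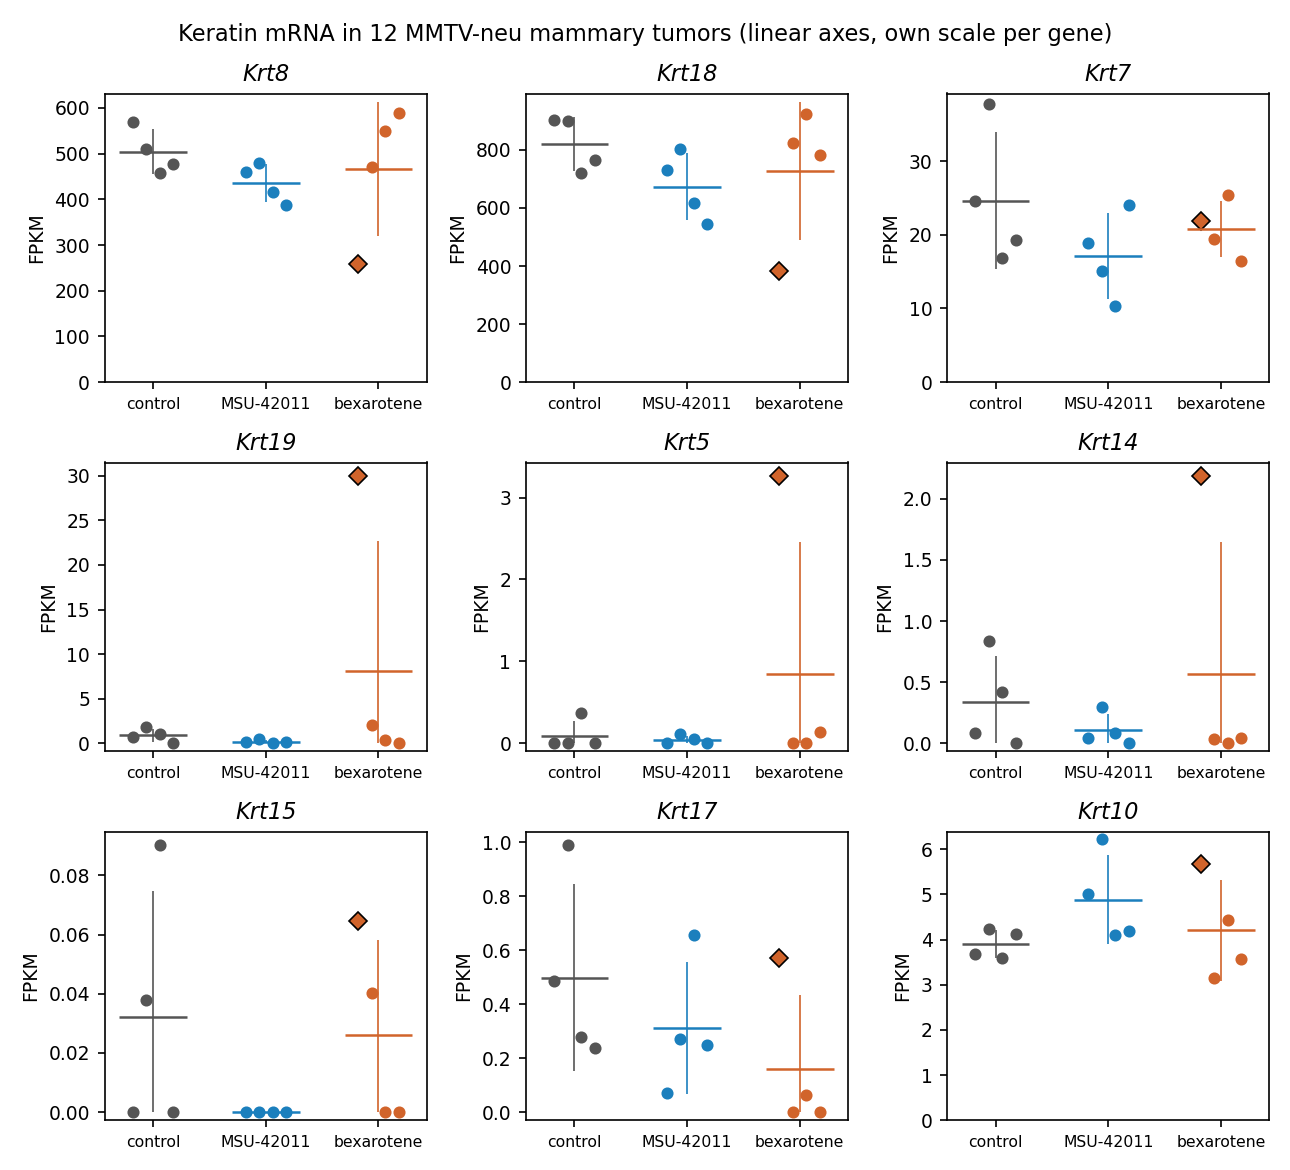
FPKM of the 9 keratins in each tumor, with 1 panel per gene and its own linear axis. Points are tumors, horizontal lines group means, vertical lines 1 SD to either side (cut at 0), n = 4 per group, and the diamond is bexarotene replicate 1, which is lowest of 12 for Krt8 and Krt18 and highest for Krt19, Krt5 and Krt14.

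Krt18, the type I chain of the luminal pair, had FPKM values of 902.7, 898.9, 721.2 and 763.6 in control replicates 1 to 4. The MSU-42011 tumors had 729.9, 801.9, 618.7 and 544.4 FPKM. The bexarotene tumors had 382.1, 822.1, 923.5 and 781.6 FPKM. The groups overlapped, the lowest value was that of bexarotene replicate 1, and the highest value, 923.5, was in the same group.

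Krt8, the type II partner, had 569.8, 511.1, 458.1 and 477.6 FPKM in the control tumors. In the MSU-42011 tumors the values were 459.2, 479.1, 416.6 and 386.9 FPKM. In the bexarotene tumors they were 259.0, 469.7, 550.1 and 588.2 FPKM. The MSU-42011 values sat at the low end of the control range or under it, and the bexarotene group held both the lowest and the highest of the 12 tumors. Of Krt8's 100-base windows 17.05% also occur in another gene, most of them in the pseudogene Krt8-ps, to which 156 reads were assigned against 218421 to Krt8.

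On the normalized CPM scale Krt8 was 1013 ± 105.8 in control tumors, 838.3 ± 92.13 with MSU-42011 and 918.7 ± 315.9 with bexarotene (mean ± SD, n = 4 each). Without bexarotene replicate 1 the third value was 1063 ± 156.0 (n = 3). Krt18 was 1212 ± 153.6, 952.7 ± 176.2 and 1047 ± 351.9 normalized CPM in the same order, and 1221 ± 64.12 without bexarotene replicate 1. Thus the bexarotene mean lay below the control mean with this tumor and slightly above it without, for both genes. In bulk RNA, fewer epithelial cells and less RNA per epithelial cell cannot be told apart.

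None of these differences passed the test. In edgeR's quasi-likelihood test over 15504 genes, Krt8 differed by a log2 fold change of -0.27 (SE 0.23, 95% interval -0.77 to 0.22, adjusted p = 0.9999) between MSU-42011 and control. Krt18 differed by -0.35 (SE 0.25, interval -0.89 to 0.19, adjusted p = 0.9999). Between bexarotene and control the values were -0.14 (interval -0.64 to 0.35) for Krt8 and -0.21 (interval -0.75 to 0.33) for Krt18, and without bexarotene replicate 1 they were 0.07 and 0.01. By normalized CPM, Krt8 was higher in an MSU-42011 tumor than in a control tumor in 1 of 16 pairs. By FPKM this held for more of the pairs. The exact two-sided permutation p of Krt8, from normalized CPM, was 0.05714, where 0.0286 is the smallest that 4 tumors against 4 allow. For Krt18 an MSU-42011 tumor was higher by normalized CPM in 3 of 16 pairs, with an exact permutation p of 0.1429.

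The 2 agonists were set side by side at the same dose and time. MSU-42011 against bexarotene gave a log2 fold change of -0.13 for Krt8 (interval -0.63 to 0.36) and -0.14 for Krt18 (interval -0.67 to 0.40), with adjusted p = 0.9967 for both. Without bexarotene replicate 1 the values were -0.34 and -0.36. These intervals leave room for a difference of either sign.

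Krt8 and Krt18 varied together. Across the 12 tumors the Pearson r of their log2(normalized CPM + 0.5) was 0.9528 (permutation p = 4e-05, adjusted over 36 pairs of the 9 keratins 0.00144), and Spearman's rho was 0.9021 (permutation p = 0.00018, adjusted 0.00648). Without the 2 tumors farthest from the median of Krt8, r was 0.9629, without bexarotene replicate 1 it was 0.8743 (adjusted permutation p = 0.018, 11 tumors), and with values centred on the group means it was 0.9469. The ratio of Krt18 to Krt8 FPKM stayed between 1.329 and 1.759 in the 12 tumors. Summed over the 9 keratins, type I chains stood at 1.299 to 1.691 times the FPKM of type II chains, and bexarotene replicate 1, at 1.481, lay inside the range of the others.

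**Figure D2:**
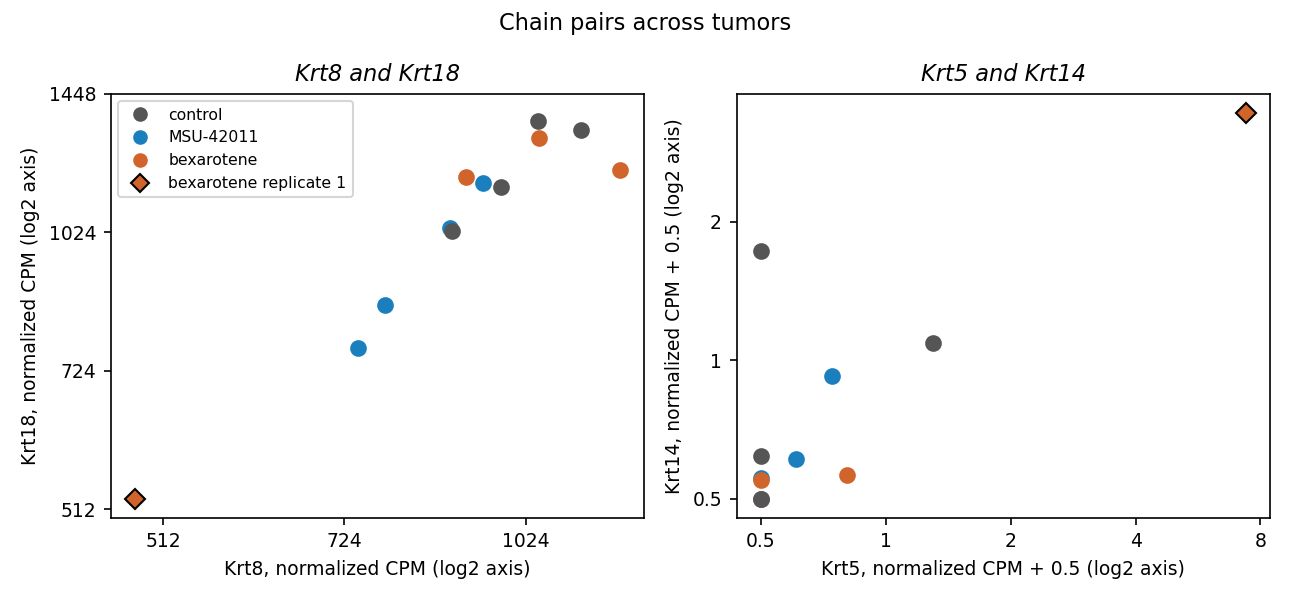
Normalized CPM of the luminal pair (left) and of the basal pair with 0.5 added (right) in each of the 12 tumors, on log2 axes, coloured by diet. Krt8 and Krt18 fall along one line (r = 0.9528) that bexarotene replicate 1 extends at its low end, while Krt5 and Krt14 are both highest in that tumor and lie far lower in the others.

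Outside the 9 keratins, the genes whose pattern over the 12 tumors was most like that of Krt18, by Pearson r of log2(normalized CPM + 0.5), were Rhpn2 (r = 0.9407), Cldn3 (0.9305), Cblc (0.9206), Cib2 (0.9027) and 5730405O15Rik (0.901). Without bexarotene replicate 1 these values were 0.8544, 0.8093, 0.7898, 0.746 and 0.8632. Cldn3 encodes a tight junction claudin and is one of the 17 luminal markers followed here. These correlations are a description, since the tumors share depth and composition differences that act on all genes.

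Krt7, a type II chain of simple and ductal epithelium, stood far below the main pair. Its FPKM values were 24.6, 37.8, 16.9 and 19.3 in control tumors, 18.8, 15.1, 10.4 and 24.1 with MSU-42011, and 21.8, 19.5, 25.4 and 16.4 with bexarotene. Control replicate 2 was the highest of the 12 and MSU-42011 replicate 3 the lowest, and the 3 groups overlapped. The length behind the FPKM of Krt7 was 1868 bases against a listed gene length of 7049 bases, so that its level relative to the other keratins depends on the length chosen. Krt7 also overlaps Gm671 on the other strand, to which 534 reads were assigned against 9607 to Krt7, and without a stated strand setting these reads cannot be told apart.

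On the normalized CPM scale Krt7 was 47.42 ± 18.81 in control tumors, 31.44 ± 10.74 with MSU-42011 and 38.52 ± 5.809 with bexarotene (SD, n = 4). The edgeR log2 fold change between MSU-42011 and control was -0.59 (SE 0.28, interval -1.21 to 0.03, unadjusted p = 0.05877, adjusted p = 0.9999). With 1 tumor left out at a time it ran from -0.80 without MSU-42011 replicate 4 to -0.30 without control replicate 2. The unadjusted p was 0.03805 in edgeR without the filter on low counts and 0.0462 in DESeq2, and neither passed the adjustment. An MSU-42011 tumor was higher than a control tumor in 3 of 16 pairs, with an exact permutation p of 0.2. Against control, bexarotene gave -0.30 (interval -0.91 to 0.31), with -0.46 without control replicate 3 and -0.01 without control replicate 2. Unlike the main pair, Krt7 was not low in bexarotene replicate 1, where its ratio to Krt8 (0.08428 by FPKM) was the highest of the 12 tumors. The other 11 tumors ran from 0.0249 to 0.07394.

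Krt19, the smallest type I keratin, which is found in luminal and duct cells, was low in 11 tumors and high in 1. The read counts were 12, 39, 19 and 0 in control tumors, 2, 8, 0 and 2 with MSU-42011, and 763, 41, 7 and 1 with bexarotene. Bexarotene replicate 1 alone held 85.35% of all Krt19 reads, and its 28.15 normalized CPM was 14.4 times the next highest tumor. Its Krt19 FPKM of 30.0 was 0.07852 of its Krt18 FPKM, whereas that ratio was at most 0.002439 in the other 11 tumors. Without bexarotene replicate 1, Krt19 in the bexarotene group was 0.7853 ± 1.023 normalized CPM (n = 3), between 0.8935 ± 0.7647 in control tumors and 0.1696 ± 0.2152 with MSU-42011 (n = 4 each).

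Among the 6 keratins tested over all 12 tumors with low counts filtered, Krt19 was the only one with an unadjusted edgeR p under 0.05 between 2 groups. Between MSU-42011 and bexarotene the log2 fold change was -5.51 (SE 1.75, interval -9.31 to -1.71, unadjusted p = 0.008117, adjusted p = 0.9967). It was -2.26 without bexarotene replicate 1 (unadjusted p = 0.1048, adjusted p = 0.9393 by edgeR), and an MSU-42011 tumor was higher in 4 of 16 pairs, with an exact permutation p of 0.2286. Bexarotene against control gave 3.10 (SE 1.48, adjusted p = 0.7897), which turned to -0.16 without bexarotene replicate 1. MSU-42011 against control gave -2.42 (SE 1.69, interval -6.10 to 1.27, adjusted p = 0.9999), with -3.64 without MSU-42011 replicate 2 and -1.76 without control replicate 2.

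The basal keratins were rare. Krt5 and Krt14 were at or under the floor of 3 counts in 8 of 12 tumors each, Krt15 in 12 and Krt17 in 4. Their 4 read counts together summed to between 2 and 61 in 11 tumors and to 291 in bexarotene replicate 1. By FPKM the sum of Krt5, Krt14, Krt15 and Krt17 was 0.9572 ± 0.7127 in control tumors and 0.457 ± 0.3277 with MSU-42011 (SD, n = 4). With bexarotene it was 0.1034 ± 0.05962 in the 3 tumors other than replicate 1 and 6.091 in replicate 1.

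Krt5, the type II chain of basal cells (chr15:101707070-101712898, minus strand), had counts of 0, 0, 15 and 0 in control tumors. With MSU-42011 the counts were 0, 4, 2 and 0, and with bexarotene they were 186, 0, 0 and 5. Krt5 was thus above the floor of 3 counts in 4 of 12 tumors, and bexarotene replicate 1 held 87.74% of its reads, at 8.561 times the normalized CPM of the next highest tumor. A part of its sequence, 3.813% of its 100-base windows, occurs in other genes, most often Krt6a, which had 1 read in all tumors.

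Krt14, the type I partner of Krt5 (chr11:100203162-100207548, minus strand), had counts of 2, 26, 11 and 0 in control tumors. The MSU-42011 tumors had counts of 1, 7, 2 and 0, and the bexarotene tumors 80, 1, 0 and 1. Bexarotene replicate 1 was again highest, with 2.189 FPKM and 61.07% of the reads, but here control replicate 2 followed at 0.8334 FPKM. In that control tumor no read was assigned to Krt5, so the 2 chains of the basal pair did not appear together there. The sequence shared with Krt16 covers 2.776% of the 100-base windows of Krt14, and Krt16 had 8 reads in all.

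Krt17, a type I chain of basal cells that is also made by skin appendages and stressed epithelium, was the only basal keratin to pass edgeR's filter on low counts. Its counts were 13, 34, 8 and 9 in control tumors, 2, 7, 18 and 9 with MSU-42011, and 23, 0, 2 and 0 with bexarotene. In contrast to Krt5 and Krt14, the highest tumor was control replicate 2, and the 3 bexarotene tumors other than replicate 1 were at or under the floor. The edgeR log2 fold change of bexarotene against control was -1.61 (SE 1.00, interval -3.80 to 0.57, adjusted p = 0.8702), and an exact permutation p was 0.1143. Leaving out bexarotene replicate 1 moved it to -4.31, a fitted value against 2 tumors with no read, and leaving out control replicate 2 moved it to -1.02. MSU-42011 against control gave -0.76 (interval -2.87 to 1.36, adjusted p = 0.9999), with -1.38 without MSU-42011 replicate 3 and -0.16 without control replicate 2. MSU-42011 against bexarotene gave 0.86 (interval -1.38 to 3.09, adjusted p = 0.9967), with 3.56 without bexarotene replicate 1 and 0.25 without MSU-42011 replicate 3.

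Krt15, a type I chain of basal and stem-like cells, had 1 read in control replicate 2, 2 in control replicate 3, 2 in bexarotene replicate 1 and 1 in bexarotene replicate 2. The 4 MSU-42011 tumors had no read. Each of the 12 tumors was therefore at or under the floor, and no difference in Krt15 was detectable at this depth.

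Krt10, a type I chain of the upper epidermis, was detected in every tumor at a low and even level. Its FPKM values were 3.69, 4.23, 3.58 and 4.11 in control tumors, 5.01, 6.23, 4.09 and 4.20 with MSU-42011, and 5.68, 3.15, 4.42 and 3.57 with bexarotene. The values rested on 82 to 195 reads per tumor, and the highest tumor was 1.501 times the median. The edgeR log2 fold changes were 0.26 with MSU-42011 against control (interval -0.24 to 0.76, adjusted p = 0.9999) and 0.06 with bexarotene against control (interval -0.44 to 0.56, adjusted p = 0.9794), the latter -0.10 without bexarotene replicate 1. Between MSU-42011 and bexarotene the value was 0.20 (interval -0.29 to 0.70, adjusted p = 0.9967). Its usual type II partners in the epidermis, Krt1 and Krt2, were nearly absent. Krt1 reached at most 0.2705 FPKM and Krt2 had no read in any tumor.

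Over the 9 keratins, 6 passed the filter on low counts and were tested, and 0 of them passed an adjusted p of 0.05 in any comparison. Of the 15504 genes tested by edgeR, 0 (0%) were called in each of the comparisons of MSU-42011 with control, bexarotene with control, and MSU-42011 with bexarotene, and 0 (0%) among the 3 groups. DESeq2 called none of the keratins for which it gave an adjusted p, which it did not give for Krt5 in any comparison nor for Krt15 outside MSU-42011 against control. At an unadjusted p under 0.05, 309 genes (1.99%) passed between MSU-42011 and control and 998 (6.44%) between bexarotene and control, with 0 of the 6 tested keratins in either. Between MSU-42011 and bexarotene 612 genes (3.95%) passed, with 1 of the 6, Krt19, and among the 3 groups 657 genes (4.24%) passed, again with Krt19 (unadjusted p = 0.01335).

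Other keratins had an unadjusted edgeR p under 0.05 when bexarotene replicate 1 was left out, though 0 passed the adjustment. Between MSU-42011 and control this was 1 of the 6, Krt18 (unadjusted p = 0.04188, adjusted p = 0.9998), where 2.63% of 15619 genes tested had such a p. Between bexarotene and control it was 1 of the 6, Krt17 (unadjusted p = 0.001715, adjusted p = 0.9777), against 3.35% of genes. Between MSU-42011 and bexarotene it was 3 of the 6, against 3.07% of genes. These were Krt17 (unadjusted p = 0.00724), Krt8 (0.03877) and Krt18 (0.04944), each with an adjusted p of 0.9393 in edgeR.

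The values of the groups overlapped for 9 of 9 keratins in each comparison. Over all tested genes, the groups did not overlap for 305 (1.97%) between MSU-42011 and control, 314 (2.03%) between bexarotene and control and 181 (1.17%) between MSU-42011 and bexarotene. The median log2 fold change of the 6 tested keratins was -0.47 between MSU-42011 and control, -0.18 between bexarotene and control and -0.13 between MSU-42011 and bexarotene, against 0.0016, 0.030 and -0.024 over all genes tested. The medians of the keratins without bexarotene replicate 1 were -0.47, -0.13 and -0.31 in the same order. The first 2 comparisons share the control tumors. Of 27 exact permutation tests, 9 keratins in 3 comparisons, 0 had p under 0.05, and adjusted values were 0.8266 or higher.

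**Figure D3:**
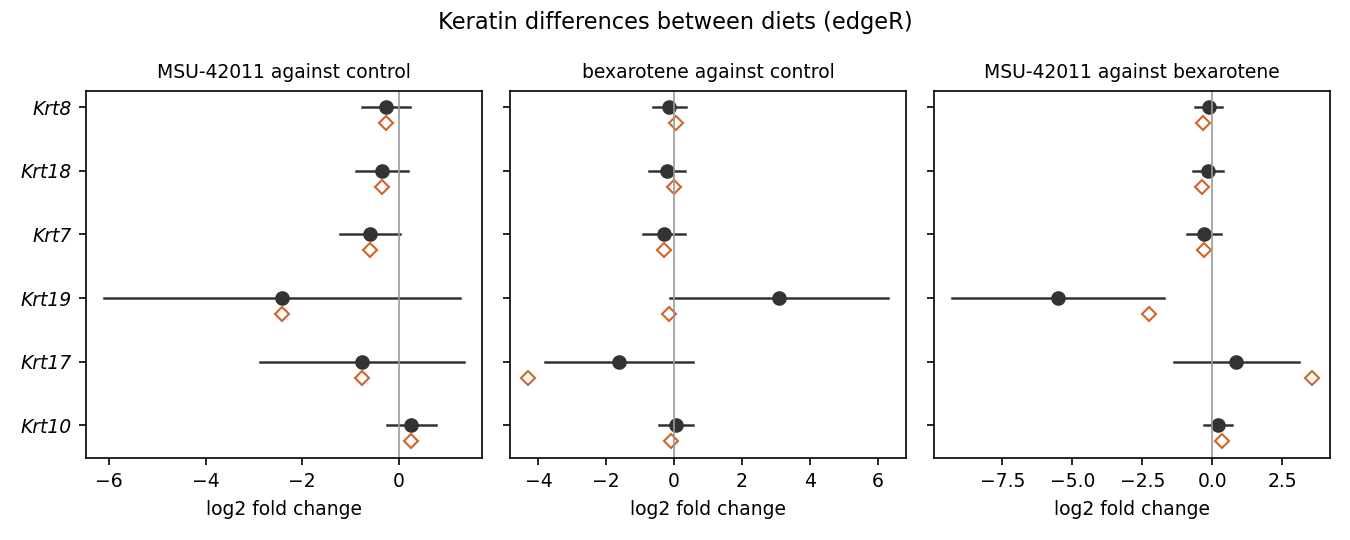
Log2 fold change (edgeR) of the 6 tested keratins in the 3 comparisons, with all 12 tumors (filled circles, bars are 95% intervals) and without bexarotene replicate 1 (open diamonds). The bars cross 0 except for Krt19 between MSU-42011 and bexarotene, where the value moves from -5.51 to -2.26 without that tumor.

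Bexarotene replicate 1 carried a different mixture of keratins from the other 11 tumors. Krt8 (485.1 against 742.5 to 1225 normalized CPM) and Krt18 (525.2 against 766.8 to 1353) were below all 11. Krt19 (28.15 against 0 to 1.956), Krt5 (6.863 against 0 to 0.8018) and Krt14 (2.952 against 0 to 1.231) were above all 11. Krt10 was above 10 of the 11, Krt17 above 9 and Krt7 above 7. The main luminal pair was thus lower and the basal pair higher than elsewhere in this 1 tumor, which has no replicate of its kind to test it with.

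The luminal and basal marker lists moved in the same directions in that tumor. The 17 luminal markers, led by Epcam (an epithelial adhesion molecule), Cldn3 and Cd24a, summed to 2323 FPKM against 3132 to 4030 in the other 11. The 12 basal and myoepithelial markers summed to 191.0 FPKM against 20.78 to 68.47, of which 114.6 was Acta2, a smooth muscle actin that fibroblasts and vessels also make. Procr (15.56 FPKM against at most 2.733), Actg2 (15.46 against at most 3.559), Myh11 (6.992 against at most 1.302) and Cnn1 (6.253 against at most 1.355) were also above all 11. The same held for Mylk, Tagln, Snai2 and Lgr5, whereas Oxtr, Cdh3 and Trp63 lay inside the range of the others. Trp63, the transcription factor that defines basal epithelium, was at 1.016 FPKM in that tumor and between 0.1292 and 1.559 in the others. Between the groups, 15 of the 17 luminal and 10 of the 12 basal markers were tested and 0 were called in any of the 3 comparisons. The median log2 fold change of the luminal markers was -0.14 between MSU-42011 and control and -0.17 between bexarotene and control, and that of the basal markers was 0.14 and 1.17. Bexarotene against control without its replicate 1 gave -0.051 for the luminal and 0.060 for the basal markers.

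Foxa1 and Pgr, luminal factors of hormone-sensing cells, were at 2.076 and 1.103 FPKM in bexarotene replicate 1. In the other 11 tumors they reached at most 0.3195 and 0.03206 FPKM. Esr1 and Prlr, from the same luminal list, lay inside the range of the others in bexarotene replicate 1, with Esr1 near its top. Esr1 was at 9.84 FPKM there, against 3.749 to 10.4 (median 4.673) in the others, and Prlr at 24.15, against 17.31 to 28.73 (median 21.31). Foxa1, Pgr and Trp63 were singled out after their values were seen. The part of these markers in the keratin values was not tested.

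Markers of skin were low. The 15 cornified epidermis markers summed to 27.41 FPKM in bexarotene replicate 1 and to 12.82 to 25.89 in the other 11. Sbsn and Asprv1 had the highest means over the 12 tumors. In bexarotene replicate 1, Sbsn (18.1 FPKM against at most 15.09), Dmkn (5.555 against at most 1.986) and Krtdap (1.121 against at most 0.3729) were above all 11. Asprv1 was below all 11 there, at 1.845 against 3.586 to 11.06 FPKM. Of the 15 markers, 6 (Krt2, Flg, Flg2, Dsg1a, Dsc1 and Calm4) were at 0 in all 12 tumors. The 11 hair follicle markers summed to 1.598 FPKM in that tumor, inside the range of 0.09233 to 2.936, with 4 at 0 in all tumors. The 10 squamous and stress markers summed to 7.172 against at most 1.548 FPKM, nearly all from Sprr1a, a cornified envelope precursor, at 7.083 FPKM, while 5 of the 10 were at 0 in all tumors. Markers of the other tissues also stood higher in this tumor. Adipocyte markers summed to 47.68 FPKM against 4.655 to 16.39, and skeletal muscle markers to 242.0 against 2.798 to 131.2, with the 131.2 in control replicate 1. Endothelial markers summed to 212.7 against 33.56 to 98.11 FPKM and leukocyte markers to 175.4 against 24.47 to 77.39.

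**Figure D4:**
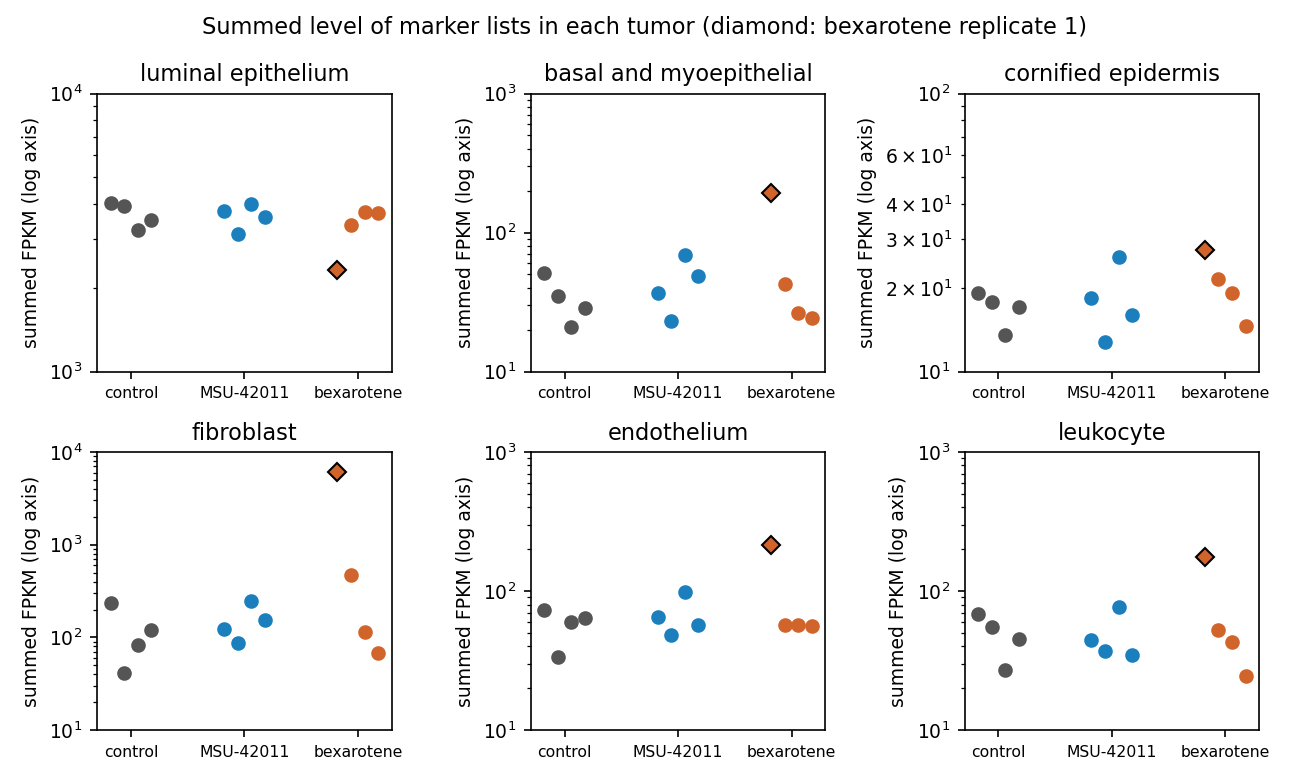
Summed FPKM of 6 marker lists in each tumor, on log axes, by diet, with bexarotene replicate 1 as a diamond. That tumor is the lowest for luminal markers (2323) and the highest for the other 5 lists, by the widest margin for fibroblast markers (6128 against at most 467.2).

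Krt19, here a luminal keratin, and Krt14 had r = 0.8683 over 12 tumors (permutation p = 0.00208, adjusted 0.03744), but a Spearman rho of 0.5961 (adjusted permutation p = 0.3139), and r was 0.8705 without the 2 tumors farthest from the median of Krt19 and 0.6241 (adjusted permutation p = 0.2831) without bexarotene replicate 1. Krt5 and Krt14, the basal pair, had r = 0.8056 (permutation p = 0.01228, adjusted 0.1474) and a rho of 0.6282 (adjusted permutation p = 0.2973). Without bexarotene replicate 1 their r was 0.3702, and without the 2 tumors farthest from the median of Krt5 it was 0.09369, so the relation rests on those tumors. Krt14 and Krt17 had r = 0.6036 with bexarotene replicate 1 and 0.6447 without it, and neither passed the adjustment (adjusted permutation p = 0.1603 and 0.2831). Of the 36 pairs of keratins, 2 passed an adjusted p of 0.05 for r, Krt8 with Krt18 and Krt19 with Krt14.

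Outside the 9 keratins, the genes most like Krt14 over the 12 tumors were Plpp3 (r = 0.9284), AI504432 (0.9175), Grasp (0.8888), Chd3 (0.8871) and Zfyve28 (0.882). The values were 0.8095, 0.7842, 0.7117, 0.7913 and 0.6671 in the same order without bexarotene replicate 1. With 8 of 12 tumors at or under 3 reads of Krt14, this likeness is loose and is given as a description.

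The rest of the keratin family added little. Of 45 other keratin symbols in the tables, 2 passed the filter on low counts, and 0 of these were called. Krt23, a type I chain, ranged from 9.363 to 23.26 FPKM with a mean of 15.27, and its groups overlapped, with 11.83 FPKM in bexarotene replicate 1. Krt80, a type II chain of differentiating epithelium, ranged from 0.7642 to 3.317 FPKM with a mean of 2.205. The mean FPKM of each of the other 43 was under 1, with Krt71 next at 0.1976.

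Proteins that tie keratin filaments to desmosomes and hemidesmosomes were followed as a list of 12 genes. All 12 were tested, 0 were called in any of the 3 comparisons, and the median log2 fold change was 0.02 between MSU-42011 and control, -0.13 between bexarotene and control and 0.18 between MSU-42011 and bexarotene. The last 2 medians without bexarotene replicate 1 were -0.0071 and 0.058. Jup (plakoglobin) was the most abundant with a mean of 415.9 FPKM, before Pkp3 (plakophilin 3) at 117.5 and Perp, a desmosomal membrane protein, at 76.52. Summed over the list, bexarotene replicate 1 had 541.6 FPKM and the other 11 tumors had 669.3 to 885.3, so the sum, like Krt8 and Krt18, was lowest in that tumor. Its largest part was Jup, at 288.0 FPKM there against 357.6 to 495.3, and Pkp3, Perp, Pkp2, Dsp and Evpl were also below all 11. Dst (59.39 against 41.15 to 83.18), Ppl, Tchp, Pkp1 and Eppk1 lay inside the range of the others. Plec, at 21.01 FPKM against 13.21 to 19.16, was above it.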

How the data were processed

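Poly(A) RNA of 12 mammary tumors was sequenced. The authors deposited raw read counts and FPKM values of 54532 genes, with 1 column per tumor in each table. According to the submitters' processing notes, STAR 2.6.1d, featureCounts 1.5.0-p3 and DESeq2 were used. Genome build and strand setting are not given in the sources used here, and the coordinates of 98.26% of 54495 genes match GENCODE M21 on GRCm38. The deposited FPKM equals the count divided by the tumor's total count and a gene length, which for 5 of the 9 keratins was below the listed length. The authors' columns of differential expression were not used. The members and marker lists were chosen with earlier results of these data known.

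Tumors were grouped by their titles. Counts were normalized by TMM, kept by filterByExpr (15504 genes) and fitted in edgeR over all 12 tumors with a mean per diet; contrasts were taken by quasi-likelihood F tests, with Benjamini-Hochberg adjustment at 0.05. Krt5, Krt14 and Krt15 did not pass the filter. Intervals are 95% intervals of the log2 fold change from its SE and the test's degrees of freedom. For single keratins an exact permutation test (two-sided) was made on the mean log2(normalized CPM + 0.5), and pairs of keratins were compared by correlation with 100000 permutations. R 4.3.3, edgeR 4.0.16, limma 3.58.1, DESeq2 1.42.0, Python 3.11.15 and SciPy 1.17.1 were used. Only the edgeR comparison of MSU-42011 with control and the permutation test of correlations were tried on simulated data. The changes simulated for edgeR were larger than those of Krt8 and Krt18.

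Named genes were all 9 keratins, other keratins with a mean FPKM of at least 1, up to 3 genes of highest mean FPKM per marker list with those at 0, and the 5 genes outside the 9 keratins most correlated with Krt18 and with Krt14; further genes are named only beside a value that needs them. Alternatives were DESeq2, its size factors within edgeR, no filter, at least 10 counts in every tumor, the compared groups alone, limma on log2(FPKM + 1) and log2(FPKM + 0.1), the replicate number as a block, and each tumor left out in turn. DESeq2 and list medians without bexarotene replicate 1 were added after seeing the data. Reads, qPCR, immunohistochemistry and cultured macrophages were not analysed here.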

Additional observations from a re-analysis of the deposited data

Results flagged for a closer look

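Within the groups of 4 tumors, 24 sets of keratin values with more than 3 counts in at least 1 tumor were searched. A tumor was flagged where its gap to its nearest neighbour took up over 0.829 of the range, and 6 were found. About 1 in 20 sets of 4 independent normal values would pass this cutoff. The keratin sets share tumors and several lie near 0 counts, so the 6 cannot be set against that rate. In 5 of the 6 the tumor was bexarotene replicate 1. It was far below the other bexarotene tumors for Krt18, at 525.2 normalized CPM with the nearest at 1174. It was far above them for Krt19, at 28.15 with the nearest at 1.956, for Krt5, at 6.863 with the nearest at 0.3065, for Krt14, at 2.952 with the nearest at 0.06131, and for Krt17, at 0.8487 with the nearest at 0.09686. The last of the 6 was Krt5 in control replicate 3, at 0.8018 normalized CPM from 15 reads, where the other 3 control tumors had none.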

How the results depend on the processing

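No keratin passed an adjusted p of 0.05 under any alternative that gave one, and Krt5, Krt14 and Krt15 have no value in fits that filter low counts. Numbers of genes called differed by tool. DESeq2 called 1 gene between MSU-42011 and control, 6 between bexarotene and control, 25 between MSU-42011 and bexarotene and 5 among the 3 groups, and without bexarotene replicate 1 it called 1, 1, 3 and 3. Leaving out 1 tumor at a time, edgeR called 0 genes in the comparisons of MSU-42011 with control and with bexarotene, and 0 to 1 in bexarotene against control and among the 3 groups, the 1 without MSU-42011 replicate 2. The cause was not tested.

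Of single keratins, 9 values under the alternatives turned in sign and 376 did not. With each tumor left out, the log2 fold change of bexarotene against control ran from -0.10 to 0.17 for Krt10, -0.33 to 0.011 for Krt18, -0.16 to 3.75 for Krt19 and -0.32 to 0.070 for Krt8, and that of Krt8 between MSU-42011 and bexarotene from -0.34 to 0.042. In DESeq2 without bexarotene replicate 1, bexarotene against control gave -0.11 for Krt10, -0.19 for Krt19, 0.065 for Krt8 and 0.0055 for Krt18.

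The number of keratin pairs with an adjusted p under 0.05 for r was 2 over all tumors, 9 with values centred on group means, 3 without the 2 tumors farthest from the median (Krt18 with Krt7 was added, r = 0.8718) and 1 without bexarotene replicate 1, Krt8 with Krt18.

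The replicate numbers gave no clear sign of a pairing. Same-numbered tumors correlated at -0.388 to 0.38 in their deviations from the group means, and tumors with different numbers at -0.38 to 0.393. Not every tumor correlated best with its own number. With 4 tumors a group, these correlations cannot decide whether the numbers mark a pairing. With the replicate number as a block, 0 genes were called in each of the 4 comparisons, and 326, 711, 415 and 371 had an unadjusted p under 0.05.

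With 4 tumors a group and a few reads per tumor, the intervals of Krt19 and Krt17 span several log2 units, and for Krt5, Krt14 and Krt15 depth limits any comparison.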
